A study of Mus musculus with 4 samples.

Results

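Late after an experimental stroke, cells from brain tissue of mice given an antibody to the integrin VLA4 were compared with cells from mice given an isotype control antibody. Every cell of these 2 libraries with at least 500 transcript molecules (UMIs), at least 200 detected genes and at most 10% mitochondrial UMIs was a member, which gave 9189 of the 15434 cells kept in the series. Of these, 6333 came from the anti-VLA4 library and 2856 from the isotype library. The series held 4 libraries, 1 for each of sham surgery with isotype antibody, stroke with isotype antibody, stroke with anti-VCAM1 antibody and stroke with anti-VLA4 antibody. All mice were C57BL/6N males of 10 months. Stroke was a distal middle cerebral artery occlusion (dMCAO), and antibody was given for 10 weeks. The infarct core and about 2 mm of surrounding cortex from 4 to 5 mice of a group were pooled before dissociation and droplet-based single-cell RNA sequencing.

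VLA4 is an integrin on leukocytes, made of the subunits encoded by Itga4 and Itgb1, and its main vascular ligand is VCAM1 on endothelium. Binding of VLA4 to VCAM1 lets T cells, monocytes and other leukocytes hold on to the vessel wall before they cross it. Border macrophages live around vessels and in the meninges, pericytes wrap capillaries, and resident memory T cells can stay in brain tissue after an injury without recirculating.

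Each side was 1 pooled library, so no difference between the antibodies could be tested: all intervals below are 95% intervals for counting error only, and differences between mice within a pool cannot be seen. Intervals for expression levels and their ratios treat each UMI as a separate draw, so they also leave out spread between cells. The dissociation was adjusted to favour endothelial and immune cells, and cells were stained for CD31, found on endothelium, and CD45, found on leukocytes; which fractions were collected, and in what proportion, is not in the labels. A share of cells therefore depends on that selection, and fewer cells of a type cannot be told apart from more cells of the others. The median depth was 4762 UMIs a cell under anti-VLA4 and 5114 under isotype, with 2156 and 2151 genes. Between the sham and isotype libraries 59 cell barcodes were shared, with a median of 17753 UMIs in the sham library and 606 in the isotype library. Of these barcodes, 55 were kept and clustered in the isotype library, among them 35 microglia-like, 3 border-macrophage-like and 1 T-cell-like cell. The isotype and anti-VLA4 libraries shared 8 barcodes. Leaving out all cells with a shared barcode gave a log2 ratio of -1.37 for the T-cell-like share, -2.13 for the border-macrophage-like share and 2.51 for the mural share, against -1.35, -2.13 and 2.47 with them.

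Leukocytes other than microglia made up a smaller share of cells under anti-VLA4, and pericytes and endothelium a larger one. T-cell-like cells, which carried Cd3e UMIs in 198 of 228 isotype cells and 168 of 196 anti-VLA4 cells, were 8.05% of clustered cells under isotype (interval 7.08 to 9.12%) and 3.16% under anti-VLA4 (2.74 to 3.62%). The sham library had 3.57% and the anti-VCAM1 library 2.06%. Border-macrophage-like cells were 6.36% under isotype (180 cells, interval 5.49 to 7.32%) and 1.45% under anti-VLA4 (90 cells, 1.17 to 1.78%), with 7.20% in sham and 1.27% under anti-VCAM1. Of these 2 classes, the anti-VLA4 share of T-cell-like cells was near that of sham, while the anti-VLA4 share of border-macrophage-like cells lay below sham. B-cell-like cells were 3.11% under isotype (88 cells) and 0.644% under anti-VLA4 (40 cells), NK-cell-like cells 0.706% (20 cells) and 0.0805% (5 cells), and plasma-cell-like cells 0.883% (25 cells) and 0.0966% (6 cells). The NK-cell-like cluster was mixed: it had 4 NK cell and 9 T cell markers, microglial markers stood at 6604 CPM in its isotype cells, against 14020 CPM in microglia-like cells, and at clustering resolution 2 12 isotype and 3 anti-VLA4 cells had that name. Endothelial-like cells were 19.8% under isotype and 42.65% under anti-VLA4, and microglia-like cells 52.9% and 39.65%. Here and below, the endothelial-like class leaves out a cluster with all 10 endothelial markers that the naming rule left unnamed. That cluster, led by the arterial gene Gkn3, held 63 isotype and 357 anti-VLA4 cells.

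**Figure D1:**
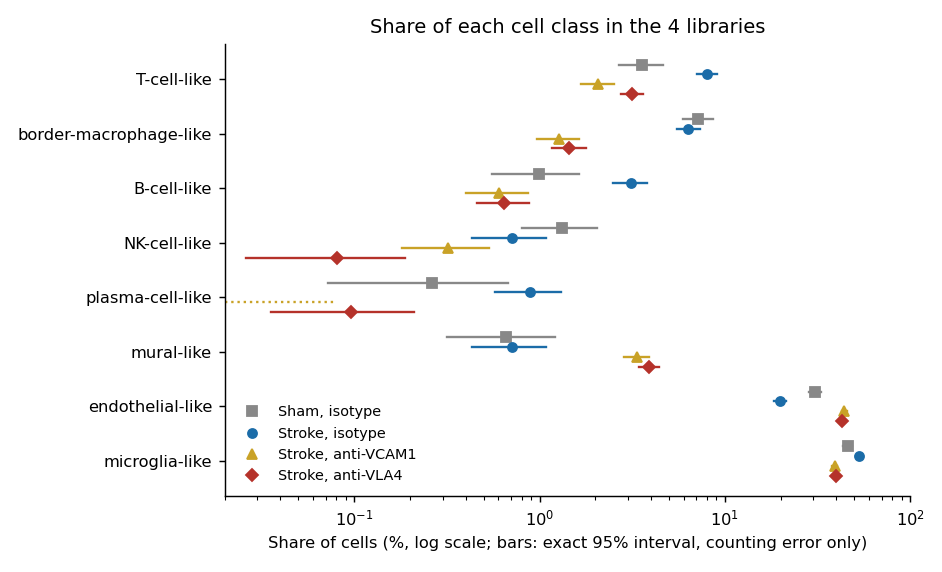
Share of clustered cells in each named class (percent, log axis) in the 4 libraries, with exact 95% binomial intervals for counting error. T-cell-like, border-macrophage-like, B-cell-like, NK-cell-like and plasma-cell-like shares are lower under anti-VLA4 than under isotype, while the mural share, all pericyte-like, is 0.706% under isotype and 3.91% under anti-VLA4; the dotted line is the exact 95% interval for plasma-cell-like cells under anti-VCAM1, where there were 0.

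Since more endothelium in a library lowers every leukocyte share, the classes were also counted against microglia, the other CD45-positive cells of the tissue. Per 100 microglia-like cells there were 15.2 T-cell-like cells under isotype (interval 13.2 to 17.5) and 7.96 under anti-VLA4 (6.85 to 9.21), beside 7.76 in sham and 5.28 under anti-VCAM1. Border-macrophage-like cells per 100 microglia-like cells were 12.02 under isotype (10.24 to 14.04) and 3.66 under anti-VLA4 (2.93 to 4.51), beside 15.7 in sham. The same counts were 5.88 and 1.62 for B-cell-like cells, 1.34 and 0.203 for NK-cell-like cells, and 1.67 and 0.244 for plasma-cell-like cells. For each of these 5 classes the intervals under the 2 antibodies did not overlap. Among the named leukocytes other than microglia, of which there were 541 under isotype and 337 under anti-VLA4, T-cell-like cells were 42.1% under isotype (37.9 to 46.4%) and 58.2% under anti-VLA4 (52.7 to 63.5%). Border-macrophage-like cells were 33.3% (29.3 to 37.4%) and 26.7% (22.1 to 31.8%) of them, intervals that overlap. There were 127 T-cell-like cells per 100 border-macrophage-like cells under isotype and 218 under anti-VLA4.

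Marker UMIs summed over whole libraries, which need no naming of cells, gave the same order for T cells, border macrophages, B cells and plasma cells. All 9 T cell markers were lower under anti-VLA4 with intervals that exclude 0, and their sum was 458 CPM (UMI counts scaled to a common library total) under isotype and 182 CPM under anti-VLA4. Cd3e, a chain of the T cell receptor complex, was 53.3 CPM under isotype and 19.9 CPM under anti-VLA4, and Trac, the constant part of the receptor alpha chain, 26.5 and 9.94 CPM. All 9 border macrophage markers were lower as well, with sums of 450 and 171 CPM. Mrc1, the mannose receptor, was 108 CPM under isotype and 28.3 CPM under anti-VLA4, and F13a1, a coagulation factor subunit made by these macrophages, 85.1 and 15.9 CPM. All 8 B cell markers and 7 of 8 plasma cell markers were lower with intervals that exclude 0, with sums of 1372 and 321 CPM and of 479 and 95.3 CPM. Ighm held 20687 of the 23358 isotype and 9605 of the 11100 anti-VLA4 B cell marker UMIs. It was also among the top genes of the plasma-cell-like cluster. Jchain held 5960 of 8158 and 2396 of 3299 plasma cell marker UMIs. Against the microglial markers, T cell markers were 5.34 UMIs per 100 under isotype and 2.84 under anti-VLA4, and border macrophage markers 5.25 and 2.66. Against UMIs of Ptprc, the gene of CD45, the gap was smaller: 85.5 T cell marker UMIs per 100 under isotype and 70.8 under anti-VLA4, and 84.0 and 66.4 for border macrophages. The border macrophage sums leaned on Stab1, which held 2416 of their 7665 UMIs under isotype and 3041 of 5903 under anti-VLA4. Its log2 ratio over whole libraries, -0.69, was the nearest to 0 of the 9 markers. NK cell markers did not follow the NK-cell-like share: their sum was 23.7 and 14.9 CPM (-0.64). Gzma, a granzyme on that list, was higher, at 2.82 and 4.04 CPM, on 48 isotype and 140 anti-VLA4 UMIs. T-cell-like cells held 26 and 6 of these UMIs. The named class with the highest Gzma level was NK-cell-like, at 753 CPM over both libraries. Per 100 Ptprc UMIs the NK cell marker sum was 4.42 under isotype and 5.80 under anti-VLA4 (0.39, 0.20 to 0.58). Gzma held 48 of the 404 isotype and 140 of the 516 anti-VLA4 UMIs of that sum. Of 7 measured NK cell markers, 5 were lower over whole libraries with intervals that exclude 0, and 1, Gzma, was higher. Klre1, an NK-type receptor on the list, had 79 of its 112 anti-VLA4 UMIs in T-cell-like cells, against 50 of 81 under isotype. The sum therefore leaned on Gzma and in part on T-cell-like cells.

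**Figure D2:**
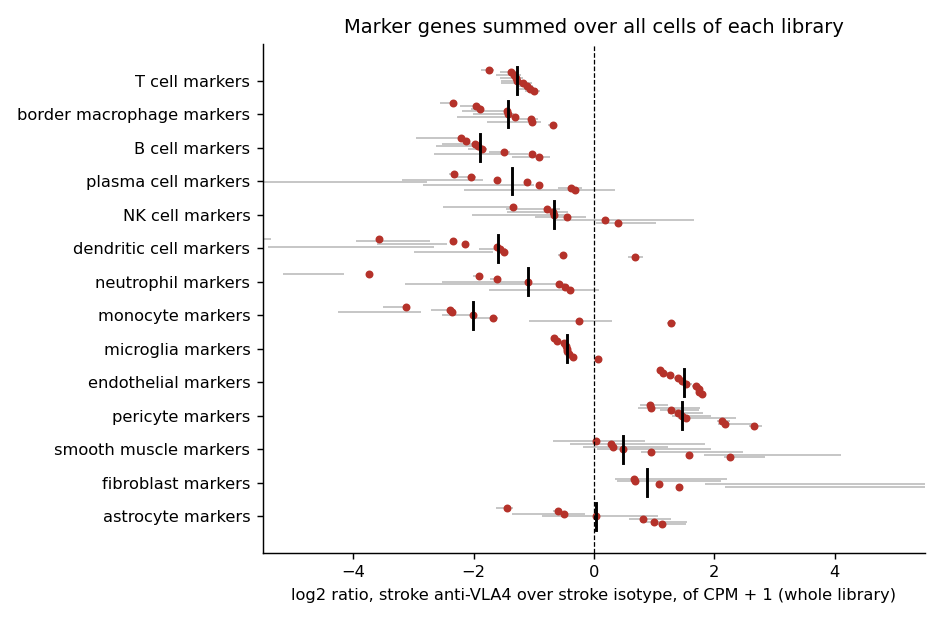
Log2 ratio of whole-library CPM, anti-VLA4 over isotype, for each marker gene (points), grouped by cell type, with 95% counting intervals (grey bars) and the median of each group (black ticks). T cell, border macrophage and B cell markers all lie below 0, and all 9 pericyte and all 10 endothelial markers lie above 0.

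Within the T-cell-like class, genes of helper and regulatory CD4 T cells were lower under anti-VLA4 and genes of cytotoxic T cells were higher. A Cd4 UMI, which marks helper and regulatory cells, was found in 41 of 228 T-cell-like cells under isotype, 18.0% (interval 13.2 to 23.6%), and in 11 of 196 under anti-VLA4, 5.61% (2.83 to 9.82%). A UMI of Cd8a or Cd8b1, the chains of the cytotoxic coreceptor, was found in 123 of 228 cells, 53.95% (47.2 to 60.6%), and in 128 of 196, 65.3% (58.2 to 71.95%). In sham these shares were 9.26% of 54 cells for Cd4 and 70.4% for CD8. Neither was detected in 67 isotype and 58 anti-VLA4 cells. Endothelial-like cells, which should lack both genes, had a CD8 UMI in 0 of 561 isotype and 3 of 2648 anti-VLA4 cells. They had a Cd4 UMI in 0 of 561 and 0 of 2648 cells, and a count of 0 (taken as up to 3 counts) allows Cd4 shares of up to 0.535% and 0.113%. Their median depths were 3814 and 4348 UMIs, against 4427 and 3708 UMIs in T-cell-like cells. With every cell thinned to 1000 UMIs, the Cd4 share was 7.24% of 221 isotype cells (4.20 to 11.5%) and 2.10% of 190 anti-VLA4 cells (0.577 to 5.30%), and the CD8 share 43.4% and 45.8%. At equal depth, then, both pairs of intervals overlap, and a difference in the CD8 share was not detectable.

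Log2 ratios of expression within a class were computed from UMIs summed over its cells, as (CPM + 1) under anti-VLA4 over (CPM + 1) under isotype. Of 5098 genes with at least 50 UMIs in T-cell-like cells, 31 were more than 2-fold higher under anti-VLA4 (0.608%) and 78 more than 2-fold lower (1.53%). Of 13 genes fixed as helper and regulatory CD4 genes, 12 reached 20 UMIs, 10 were lower and 4 of these were past 2-fold. Their median log2 ratio was -0.60, against -0.01 over the 7840 genes measured at that depth. Of 17 cytotoxic and CD8 genes, all measured, 15 were higher and 1 past 2-fold, with a median of 0.39. The lists were drawn up with earlier results of these data known, so their direction is a description.

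Ikzf2, the transcription factor Helios, found in regulatory T cells among others, was at 396 CPM in T-cell-like cells under isotype and 146 CPM under anti-VLA4. Sham was at 106 and anti-VCAM1 at 161 CPM (log2 ratio -1.44, interval -1.75 to -1.15). The isotype library was the highest of the 4. An Ikzf2 UMI was found in 73 isotype and 36 anti-VLA4 cells, more than the 41 and 11 with a Cd4 UMI. In NK-cell-like cells of both libraries Ikzf2 was at 167 CPM. Which T cells held it was not tested. Cd4 itself was at 72.3 and 26.95 CPM (-1.39, -2.18 to -0.73). Cd40lg, through which helper cells activate B cells and macrophages, was at 152 and 60.0 CPM (-1.33, -1.83 to -0.87), although sham, at 179 CPM, was above both. Ctla4, an inhibitory receptor that is high on regulatory cells, was at 336 and 145 CPM (-1.21, -1.53 to -0.91), and carried a UMI in 100 isotype and 40 anti-VLA4 cells. Icos, a costimulatory receptor, was at 460.5 and 233 CPM (-0.98). Foxp3, the defining factor of regulatory T cells, had a UMI in 7 isotype and 3 anti-VLA4 cells, too few for a ratio. For 2 regulators of other helper lineages the intervals included 0: Gata3 had a ratio of -0.09 (-0.55 to 0.36) and Tbx21 -0.28 (-0.69 to 0.11). Cd28, the costimulatory receptor of T cell activation, was at 324 CPM under isotype and 201 CPM under anti-VLA4 (-0.69). The receptor signalling list of 16 had 7 genes higher, 9 lower and a median of -0.01.

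On the cytotoxic side, Nkg7, a granule protein, was at 916 CPM in T-cell-like cells under isotype and 1382 CPM under anti-VLA4 (0.59, 0.47 to 0.72). Ccl5, a chemokine of activated cytotoxic cells, was at 4155 and 5453 CPM (0.39, 0.33 to 0.45). Ccl4 was at 375 and 593 CPM (0.66), and its relative Ccl3 at 33.9 and 62.5 CPM (0.86); in sham both were higher still, at 1270 and 285.5 CPM. Klrd1, the CD94 chain of NK-type receptors on cytotoxic cells, was at 125 and 229 CPM (0.86), with a UMI in 59 of 228 and 79 of 196 cells. Gzmb, a granzyme that kills target cells, was at 34.8 and 73.5 CPM (1.06, 0.47 to 1.71) from 16 and 20 cells with a UMI. Of its 60 anti-VLA4 UMIs, 17 lay in 1 cell. Perforin (Prf1) had a ratio of 0.14, Gzmk 0.16 and Ifng -0.14, each with an interval that includes 0. Gzma went the other way, at 23.8 and 7.35 CPM (-1.57), on UMIs from 8 and 2 cells. By the ratio alone, other genes at the top were Klre1, another NK-type receptor, at 45.8 and 96.8 CPM (1.06), Hsph1, a heat shock protein, at 88.8 and 179 CPM (1.00), and Tcrg-C2, a constant segment of the gamma chain of the gamma-delta receptor, at 73.2 and 135 CPM (0.87). Cd163l1, found on gamma-delta T cells, was at 59.5 and 104 CPM (0.80), on 8 and 10 cells with a UMI.

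Of 14 residency and checkpoint genes 10 were higher, 5 of them with intervals above 0, and the median of 0.24 was under the 0.25 set for calling a list. Itgae, the CD103 integrin chain that anchors resident T cells to epithelial-type cadherin, was at 12.8 CPM under isotype and 41.65 CPM under anti-VLA4 (1.63, 0.76 to 2.71), with a UMI in 11 and 19 cells. Itga1, a collagen-binding integrin chain of resident cells, was at 126 and 205 CPM (0.69, 0.36 to 1.03), with sham at 307 CPM. Lag3, an inhibitory receptor, was at 25.6 and 45.3 CPM (0.80). Cd69 (-0.01), Cxcr6 (0.18), Pdcd1 (0.09) and Tox (-0.11), which mark residency or repeated stimulation, each had an interval that includes 0, and Cxcr6 was detected in 155 of 228 and 133 of 196 cells. Of the recirculation genes, Klf2, which keeps cells in circulation, was at 63.2 and 125 CPM (0.97), with a UMI in 38 of 228 and 36 of 196 cells. It was at 2421 CPM in endothelial-like cells, whose markers were at 78.7 and 349 CPM in T-cell-like cells. Il7r was at 505 and 617.5 CPM (0.29) and Satb1 at 173 and 107 CPM (-0.69), and the list of 6 had a median of -0.02. Among chemokine receptors Cxcr3, which binds interferon-induced chemokines, was at 106 and 167 CPM (0.64), and the 7 had a median of -0.09.

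The lowest ratio in T-cell-like cells was that of Areg, a growth factor of the epidermal growth factor family, at 189.5 and 20.8 CPM (-3.13). Of its 207 isotype UMIs, 145 came from 1 cell with 23626 UMIs, no UMI of Cd3e, Cd3d, Cd3g or Trac, and 6 of Gata3. Elovl5 (-1.50), Nr4a3 (-1.30) and Gch1 (-1.28) were also among the lowest, and 31 anti-VLA4 against 74 isotype cells had a UMI of Nr4a3, an early gene of receptor signalling. Immediate early genes were uneven, with Fosb at -1.34, Nr4a1 at -1.07 and Hspa1a at 1.07 in a dissociation stress list of 16 whose median was -0.07. Endothelial marker UMIs in T-cell-like cells were 78.7 CPM under isotype and 349 CPM under anti-VLA4, 99 of the 285 in 1 cell. Without the cells holding at least 5 such UMIs (1 and 4 cells), the medians of the helper and cytotoxic lists were -0.62 and 0.39. Each of 4 other ways of naming and filtering the cells gave 170 to 178 genes past 2-fold lower in place of 78, and kept both list medians on their side, at -0.84 to -0.47 and 0.39 to 0.54.

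**Figure D3:**
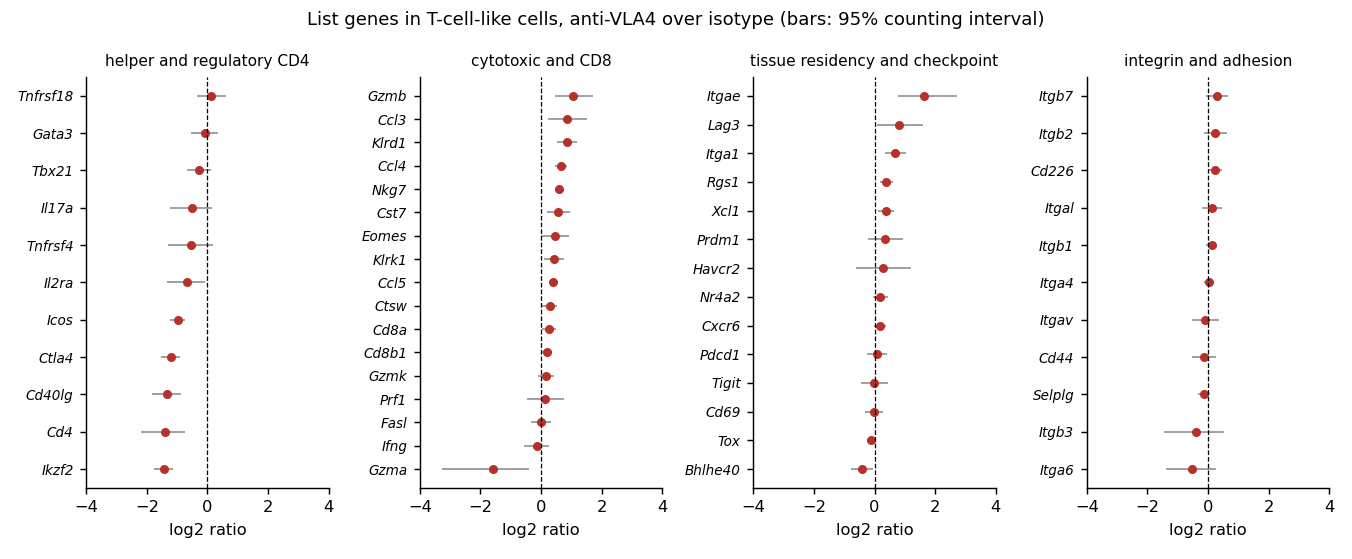
Log2 ratios of CPM + 1 within T-cell-like cells, anti-VLA4 over isotype, for members of 4 gene lists with at least 20 UMIs, 1 helper list member left out; bars are 95% counting intervals. Ikzf2, Cd4, Cd40lg and Ctla4 lie past 2-fold lower, and 15 of 17 cytotoxic and CD8 genes lie above 0.

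In border-macrophage-like cells, interferon-response genes and the monocyte-attracting chemokines were higher under anti-VLA4, MHC class II genes were level, and several lipid and lysosome genes were lower. Of 4875 genes tested, 117 were more than 2-fold higher (2.4%) and 98 more than 2-fold lower (2.01%). The cells carried Mrc1 UMIs in 146 of 180 isotype and 77 of 90 anti-VLA4 cells. Endothelial RNA differed within this class: endothelial markers were at 32.7 CPM under isotype and 2075 CPM under anti-VLA4, and 10 of 90 anti-VLA4 cells held at least 5 endothelial marker UMIs against 0 of 180 isotype cells. Without those 10 cells, 36 in place of 117 genes were past 2-fold higher, so each gene below that depends on them is given with and without.

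Of 20 interferon and MHC class I genes, all measured, 16 were higher under anti-VLA4, 4 of them past 2-fold, with a median of 0.56 (0.46 without the 10 cells) against -0.01 over 7806 genes. At a coarser clustering, which drew further cells into the class, the median was 0.14, below the 0.25 set for calling a list. Bst2, an antiviral membrane protein, was at 466 CPM under isotype and 725 CPM under anti-VLA4 (0.64, interval 0.44 to 0.83). Isg15, a ubiquitin-like protein induced by interferon, was at 95.4 and 196 CPM (1.03; 0.69 without the 10 cells), with sham at 330 and anti-VCAM1 at 27.5 CPM. H2-D1 and H2-K1, which present antigen to CD8 T cells, were at 751 and 1105 CPM (0.56) and at 517 and 689 CPM (0.41). Iigp1, an interferon-induced GTPase, had the highest ratio, at 44.5 and 369 CPM (3.02; 2.34 without the 10 cells), but 92 of its 198 anti-VLA4 UMIs lay in 1 cell that also had 47 UMIs of the endothelial gene Cldn5. Gbp2, a related GTPase, was at 11.8 and 68.9 CPM (2.45; 2.10) and Rsad2, an antiviral enzyme, at 35.5 and 110 CPM (1.61; 0.82). Of the 59 anti-VLA4 UMIs of Rsad2, 28 lay in 1 cell. Ifi27l2a, also interferon-induced, was lower, at 554 and 427 CPM (-0.38).

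The chemokines Ccl2, Ccl7, Ccl8 and Ccl12, which attract monocytes through CCR2 or related receptors, were higher in border-macrophage-like cells. Ccl2 was at 294 CPM under isotype and 671 CPM under anti-VLA4 (1.19, 0.97 to 1.41), with sham at 695 and anti-VCAM1 at 533 CPM. Ccl12 was at 394.5 and 913 CPM (1.21), with sham at 1152 and anti-VCAM1 at 365 CPM, Ccl7 at 321 and 550 CPM (0.77), with sham at 723.5 CPM, and Ccl8 at 73.6 and 272 CPM (1.87), with sham at 164 CPM. Ccl12 had a UMI in 76 of 180 isotype and 38 of 90 anti-VLA4 cells, 42.2% on both sides. The top cell held 55 of its 434 isotype and 93 of its 490 anti-VLA4 UMIs. For Ccl8 the top cell held 12 of 81 and 40 of 146 UMIs. For Ccl2, Ccl7 and Ccl12 the isotype level was below that of sham and the anti-VLA4 level lay between them. The inflammatory list as a whole had 10 of 15 genes higher and a median of 0.22: Il1b was at 1065 and 891 CPM (-0.26), Tnf at 294.5 and 231 CPM (-0.35), and Nlrp3, the inflammasome sensor, at 190.0 and 136 CPM (-0.48). Cxcl10 (2.16) and Cxcl9 (2.31), chemokines for CXCR3-bearing T cells, rested on few cells, with UMIs in 8 and 5 and in 2 and 6 cells. For Cxcl9, 110 of 142 anti-VLA4 UMIs lay in 1 cell.

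Perivascular and scavenger genes had a median of 0.20, with 10 of 14 higher. Cd209f and Cd209g, lectins of perivascular macrophages, were at 91.8 and 218 CPM (1.24, 0.85 to 1.65) and at 35.45 and 78.25 CPM (1.12). Pf4, a chemokine made by border macrophages, was at 526 and 941 CPM (0.84), Cbr2 at 80.0 and 132 CPM (0.72) and Cd163, the haemoglobin scavenger receptor, at 160.0 and 218 CPM (0.44). Mrc1 (0.04) and Lyve1 (0.29), the hyaluronan receptor of the perivascular subset, had intervals that include 0. The 7 measured MHC class II genes had a median of 0.02: H2-Aa was at 4752 and 4784 CPM (0.01, -0.06 to 0.08) and Cd74, the invariant chain, had a ratio of 0.09. H2-Aa was detected in 123 of 180 and 57 of 90 cells.

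Ccr2, the receptor by which monocytes enter tissue, was at 277 CPM in border-macrophage-like cells under isotype and 160 CPM under anti-VLA4 (-0.79, -1.15 to -0.44), with sham at 322 and anti-VCAM1 at 255 CPM. A Ccr2 UMI was found in 61 of 180 isotype and 19 of 90 anti-VLA4 cells, and after thinning to 1000 UMIs in 15.1% (10.1 to 21.4%) and 8.05% (3.30 to 15.9%), intervals that overlap. Endothelial-like cells had a Ccr2 UMI in 0 of 561 and 2 of 2648 cells. The monocyte-derived list had 5 genes higher and 5 lower with a median of -0.06; Lyz2, lysozyme, was at 5659 and 7106 CPM (0.33), and Fn1, with a ratio of 2.43, was at -1.83 without the 10 cells with endothelial RNA. Of 14 lipid and lysosome genes, 10 were lower and the median was -0.17, while the summed level was higher (0.30) because Apoe, the lipid carrier, went from 12010 to 16550 CPM (0.46). Lgals3, galectin-3, was at 209 and 82.0 CPM (-1.34, -1.85 to -0.88), and Ctsd, a lysosomal protease, at 915 and 559 CPM (-0.71). Lpl (-1.84) and Spp1 (-1.83), both induced in lipid-laden macrophages, had UMIs in 8 and 4 and in 14 and 2 cells. Of the 12 adhesion genes 8 were lower, with a median of -0.23: Icam1 was at 92.7 and 48.4 CPM (-0.92), Selplg, a selectin ligand, at 190.0 and 104 CPM (-0.86) and Itgam, the CD11b chain, at 172 and 106 CPM (-0.69). Each of these 3 genes was higher in microglia-like cells than in this class, and microglial markers within border-macrophage-like cells were at 3462 CPM under isotype and 2660 CPM under anti-VLA4; their part in the lower levels was not tested. Vcam1, the ligand of the blocked integrin, was higher in these macrophages, at 224 and 358 CPM (0.68, 0.40 to 0.96), with 222 CPM in sham and 348 CPM under anti-VCAM1. It had a UMI in 46 of 180 isotype and 25 of 90 anti-VLA4 cells, and 39 of its 192 anti-VLA4 UMIs lay in 1 cell.

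Among the remaining genes with the most extreme ratios in border-macrophage-like cells, Fgfr2, a growth factor receptor, was at 50.9 and 147 CPM (1.51) and Sdc4, a heparan sulphate proteoglycan, at 87.25 and 201 CPM (1.20). The top cell held 21 of 79 anti-VLA4 UMIs for Fgfr2 and 29 of 108 for Sdc4. Ccl24, an eosinophil chemokine, was at 124 and 296 CPM (1.25), but 119 of 159 anti-VLA4 UMIs came from 1 cell, and with the top cell for this gene dropped from both libraries the ratio was -0.58. Among the lowest were Ptgds, prostaglandin D synthase (-1.94), Osbpl3 (-1.60), Rffl (-1.39), Arhgap24 (-1.39), Mta3 (-1.38) and Gm19951 (-1.37). Long genes had lower ratios than short ones in this class, with medians of 0.12 among the shortest 10% of genes by genomic span and -0.23 among the longest 10%, and in T-cell-like cells, with 0.10 and -0.24. With that trend removed, the helper and cytotoxic list medians in T-cell-like cells were -0.63 and 0.29.

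**Figure D4:**
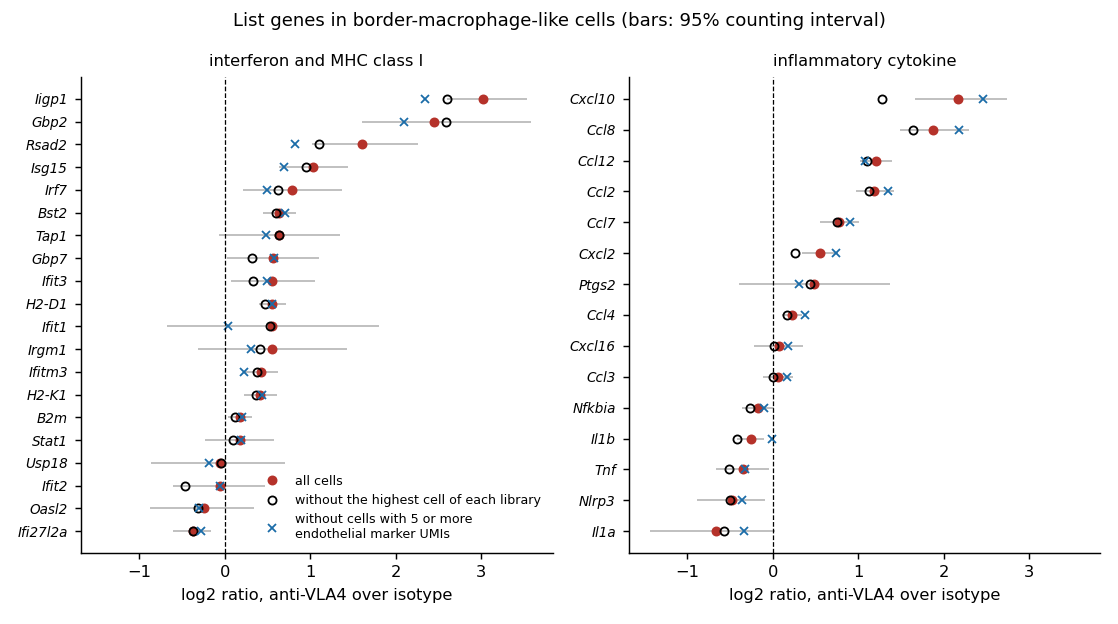
Log2 ratios of CPM + 1 within border-macrophage-like cells, anti-VLA4 over isotype, for members of the interferon and inflammatory lists with at least 20 UMIs. Red points use all cells with 95% counting intervals, open circles leave out the top cell for the gene on either side, and blue crosses leave out cells with at least 5 endothelial marker UMIs; 16 of 20 interferon genes lie above 0, and Iigp1 is at 3.02 with all cells and at 2.34 without those cells.

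Pericyte-like cells were a larger share under anti-VLA4, with 20 of 2832 isotype cells, 0.706% (0.432 to 1.09%), and 243 of 6209 anti-VLA4 cells, 3.91% (3.45 to 4.43%). Sham had 0.661% and anti-VCAM1 3.35%. No cluster met the rule for smooth-muscle-like cells, so pericyte-like cells were all of the mural cells. Set against endothelium, which was also a larger share under anti-VLA4, the gap was smaller, with 3.57 pericyte-like cells per 100 endothelial-like cells under isotype (2.16 to 5.56), 9.18 under anti-VLA4 (8.01 to 10.5), 2.15 in sham and 7.59 under anti-VCAM1. Over whole libraries, all 9 pericyte markers were higher under anti-VLA4. Rgs5, a signalling regulator of pericytes, was at 46.0 CPM under isotype and 295 CPM under anti-VLA4, and Vtn, vitronectin, at 48.0 and 214 CPM. Pericyte marker UMIs per 100 endothelial marker UMIs were 3.64 under isotype and 5.75 under anti-VLA4 (log2 ratio 0.66, 0.60 to 0.72), and 2.23 in sham. Of 7 measured smooth muscle markers, 4 were higher over the library with intervals above 0, and 0 were lower with intervals below 0. Myl9, a myosin light chain shared with pericytes, was at 4.76 and 26.75 CPM and held 926 of the 1337 anti-VLA4 UMIs of that list. Myh11 was at 0.881 and 2.63 CPM and Des at 0.470 and 3.41 CPM, while Acta2, smooth muscle actin, was at 1.41 and 1.99 CPM (0.31, -0.19 to 1.24). Per 100 endothelial marker UMIs the list sum was 0.278 under isotype and 0.355 under anti-VLA4 (0.35, 0.12 to 0.59).

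The pericyte-like class was made of 2 clusters. One had all 9 pericyte markers and held 14 isotype and 94 anti-VLA4 cells, 0.494% and 1.51% of clustered cells (log2 ratio 1.62, 0.80 to 2.54). The other had 4 pericyte and 7 endothelial markers and held 6 isotype, 149 anti-VLA4, 100 anti-VCAM1 and 0 sham cells. Of pericyte-like cells 10 of 20 under isotype and 197 of 243 under anti-VLA4 held at least 5 endothelial marker UMIs. The part of endothelial RNA in the larger share was not tested, but without the mixed cluster the log2 ratio of the mural share was the 1.62 given above in place of 2.47. Against endothelium, leaving out the mixed cluster gave 2.50 pericyte-like cells per 100 endothelial-like cells under isotype (1.36 to 4.22) and 3.55 under anti-VLA4 (2.86 to 4.36), a log2 ratio of 0.51 in place of 1.36, with intervals that overlap.

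Levels inside the cluster with all 9 pericyte markers rest on 14 isotype cells. The summed level of 12 pericyte identity genes was 23270 CPM under isotype and 18900 CPM under anti-VLA4 (-0.30, -0.37 to -0.23), with 28290 CPM in sham. Rgs5 was at 4439 and 4305 CPM (-0.04, -0.21 to 0.12). Atp13a5, a transporter of brain pericytes, was at 2194 and 979 CPM (-1.16), with sham at 3202 CPM, and Abcc9, a subunit of their potassium channel, at 1298 and 641 CPM (-1.02). Lama2 and Lamc1, laminin chains of the vascular basement membrane, were at 818 and 299 CPM (-1.45) and at 506 and 200 CPM (-1.34), and Nid1, which links laminin to collagen, at 350.5 and 156 CPM (-1.16). Fn1, fibronectin, was at 169 and 322.5 CPM (0.93), and the matrix list summed to 4335 and 3648 CPM (-0.25). Cxcl12, a chemokine that holds CXCR4-bearing leukocytes, was at 1506 and 2619 CPM (0.80), but it is also abundant in endothelium, at 5438 and 6038 CPM. Endothelial markers in this cluster were at 7308 CPM under isotype, 9936 CPM under anti-VLA4 and 1368 CPM in sham, and Malat1, a nuclear RNA, was at 53630 and 31100 CPM; their part in these differences was not tested. Fos, an immediate early gene, was at 493 and 101 CPM (-2.27).

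Endothelial-like cells differed in makeup as well as in number: 47.2% of the 561 isotype cells but 21.6% of the 2648 anti-VLA4 cells lay in the cluster led by Ptprg and Mecom, and 5.88% and 23.5% in the cluster led by Ramp2 and Itm2a. Of 10564 genes, 29 were more than 2-fold higher under anti-VLA4 (0.275%) and 136 more than 2-fold lower (1.29%), and median ratios were 0.21 among the shortest 10% of genes and -0.44 among the longest 10%. Of 16 measured leukocyte adhesion and transmigration genes 12 were lower, with a median of -0.18 against -0.08 over 11868 genes. Vcam1 was at 37.9 CPM under isotype and 13.8 CPM under anti-VLA4 (-1.40), with sham at 91.45 CPM; it was detected in 21 of 561 and 42 of 2648 cells, and the ratio was -0.89 once the cell with most Vcam1 UMIs was dropped on either side. Icam1 was at 31.5 and 19.7 CPM (-0.65), and Icam2, the constitutive ligand for leukocyte integrins, at 267 and 314 CPM (0.24). Of 17 genes by which endothelium recruits or holds mural cells, 12 were lower and none past 2-fold, with a median of -0.12: Pdgfb, the pericyte attractant, was at 575 and 529 CPM (-0.12), Tek, the angiopoietin receptor, at 582 and 440 CPM (-0.40), and Dll4, a Notch ligand, at 48.0 and 68.1 CPM (0.50). By the naming rule the highest genes were Sox18, an endothelial transcription factor (1.28), Ankrd37 (1.01), Tmem128 (0.97) and Depp1 (0.85). Sox18 was at 164 CPM under isotype and 399 CPM under anti-VLA4, with sham at 417 and anti-VCAM1 at 416 CPM. The lowest were Il1r1, the interleukin-1 receptor (-1.58), Camk1d (-1.40), Lars2 (-1.21) and Gvin1 (-1.10). Il1r1 was at 89.2 and 29.3 CPM, with sham at 102 and anti-VCAM1 at 28.4 CPM. It was detected in 66 of 561 isotype and 178 of 2648 anti-VLA4 cells. At clustering resolution 2, an endothelial-like cluster led by Il1r1 and Vwf held 35 isotype and 44 anti-VLA4 cells. The part of that cluster's smaller share in the Il1r1 level was not tested.

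In microglia-like cells 23 of 11403 genes were more than 2-fold higher under anti-VLA4 (0.202%), a count that was 252 with doublets kept, and 35 more than 2-fold lower (0.307%). The clusters that held the largest shares of the isotype cells, led by Csmd3 and P2ry12 and by Csmd3 and Nav3, had 31.9% and 20.6% of them, against 15.6% and 8.61% of the anti-VLA4 cells. Of 17 measured genes by which microglia attract or activate T cells, 15 were lower under anti-VLA4, with a median of -0.49 against 0.06 over 12959 genes. Tnf was at 234 CPM under isotype and 103 CPM under anti-VLA4 (-1.17), with sham at 166 and anti-VCAM1 at 188 CPM. The related chemokines Ccl3 and Ccl4 were at 557 and 294 CPM (-0.92) and at 1624 and 973 CPM (-0.74), in both cases lower under anti-VLA4 than in each of the other 3 libraries. Il1b was at 77.2 and 44.2 CPM (-0.79), and Ccl2 at 50.9 and 27.3 CPM (-0.87), the reverse of its order in border-macrophage-like cells. Cxcl10 (0.03) and Il15 (0.08) had intervals that include 0. The list median was nearer 0 with a stricter cell filter (-0.12), with doublets kept (-0.23) and at coarser (-0.18) and finer (-0.11) clustering, all under the 0.25 set for calling a list.

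Beside these genes, dissociation stress genes were lower in the same cells: 14 of 16, with a median of -0.55, among them Egr1 at 740 and 309 CPM (-1.26), Fos at 1520 and 884 CPM (-0.78) and Atf3 at 1491 and 836 CPM (-0.83). Hspa1a and Hspa1b, heat shock genes, were higher (both 0.37). The part of these genes' response in the levels of Tnf, Ccl3 and Ccl4 was not tested. Homeostatic genes differed little, with 10 of 12 higher and a median of 0.08: Tmem119 was at 574 and 647 CPM (0.17) and Selplg at 1042 and 1261 CPM (0.28). Of 18 disease-associated genes 10 were higher, with a median of 0.08. Spp1, osteopontin, was at 79.6 and 15.2 CPM (-2.31), yet 679 of its 749 isotype UMIs came from 1 cell, and dropping the top cell on either side gave a ratio of -0.06. Csf1, a growth factor for microglia, was at 224 and 140 CPM (-0.67), with sham at 106 CPM.

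**Figure D5:**
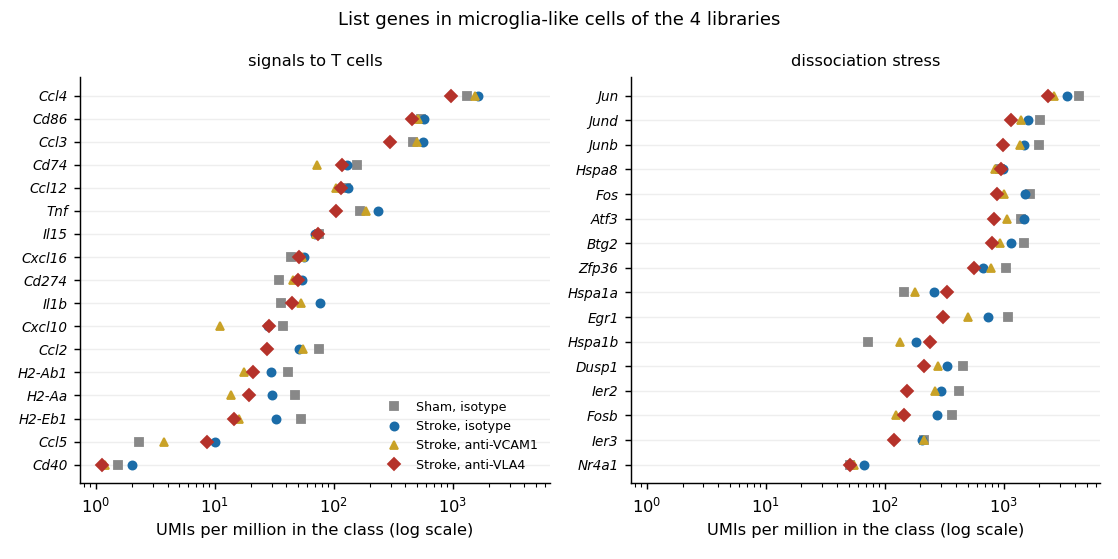
CPM within microglia-like cells (log axis) in the 4 libraries for genes that signal to T cells and for dissociation stress genes. Tnf, Ccl3 and Ccl4 are lowest in the anti-VLA4 library, at 103, 294 and 973 CPM, and Egr1 and Fos are also lowest there, at 309 and 884 CPM.

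For the genes of the blocked integrin, Itga4 and Itgb1, the intervals included 0 in T-cell-like, border-macrophage-like and B-cell-like cells. Itga4 was at 611.5 CPM in T-cell-like cells under isotype and 623.6 CPM under anti-VLA4 (0.03, interval -0.14 to 0.20), and Itgb1 at 583 and 632 CPM (0.12, -0.05 to 0.29). Itgb7, which pairs with the Itga4 product in a gut-homing integrin, was at 127 and 157 CPM (0.30, -0.06 to 0.66). In border-macrophage-like cells Itga4 was at 150.0 and 166 CPM (0.14, -0.24 to 0.53), in B-cell-like cells at 228.5 and 263 CPM (0.20, -0.27 to 0.66), and in microglia-like cells it was near 0, at 2.87 and 2.09 CPM. In plasma-cell-like cells it was at 84.5 and 181 CPM (1.09, 0.04 to 2.10), on 25 and 14 UMIs. The ratio was -0.45 (-1.86 to 0.73) in NK-cell-like and -0.83 (-1.75 to 0.21) in pericyte-like cells. Itga4 was detected in 176 of 228 T-cell-like cells under isotype and 132 of 196 under anti-VLA4, and after thinning in 46.2% (39.5 to 53.0%) and 42.1% (35.0 to 49.5%), intervals that overlap.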

How the data were processed

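Single cells of 4 libraries, 1 per group, were measured by droplet-based 3′ RNA sequencing. The authors deposited raw UMI counts for each gene in each barcode. Cell Ranger 7.0.1 wrote them, per the file headers. The submitters' processing notes name Cell Ranger 6.0.0, Seurat 4.3.0.1 and the builds mm10 and GRCh38. Alignment settings are not given in the sources used here. Groups came from the sample titles.

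A cell was kept from 500 UMIs and 200 detected genes upward if mitochondrial UMIs made up no more than 10%, which removed 28 of 6361 anti-VLA4 and 35 of 2891 isotype barcodes. Scrublet, run through Scanpy 1.11.5, marked 124 and 24 of the kept cells (1.96% and 0.840%) as doublets, and these were left out, leaving 6209 and 2832 clustered cells. The total depth was 34721356 UMIs under anti-VLA4 and 17130182 under isotype. All 4 libraries were clustered together (Leiden, resolution 1, leidenalg 0.10.2) on 2000 variable genes, with 30 components and 15 neighbours, leaving out the listed genes and mitochondrial, ribosomal and haemoglobin genes. Names are rebuilt from markers: a name needed 3 or more markers of a class that 25% of the cluster's cells carried and that were raised by a log2 fold of 1 or more. A name was withheld where the 10 genes leading the cluster held as many markers of another class, if any, as of its own. Cells of one name can therefore differ from those the study counted.

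UMIs were summed per class and library and divided by the sum over all genes. Genes with at least 50 UMIs over both libraries were tested against 2-fold, and list genes were measured from 20 UMIs. A list was called where its median log2 ratio was at least 0.25 from 0 and at least 0.667 of its genes lay on that side. Intervals (95%) are Clopper-Pearson for shares, Poisson for CPM and conditional binomial for ratios without the added 1. Gene spans came from GENCODE on the GRCm38 build.

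The genes named by rule were the 8 highest and 8 lowest in T-cell-like and border-macrophage-like cells and the 4 highest and 4 lowest in endothelial-like and microglia-like cells, among genes with at least 100 UMIs and at least 50 CPM on either side, and up to 3 members a list with the largest ratios. This rule skipped mitochondrial, ribosomal, haemoglobin and receptor variable genes and any gene whose level in another class was more than 5 times that in the class itself. Other list members were named after their values were seen. A few genes that the rule or the lists hold are not reported here, though list counts and medians include them. The members and lists were chosen with earlier results of these data known. The alternatives tried were other cell filters, namings and clusterings, doublets kept, thinning to 1000 UMIs, per-cell means, other pseudocounts and depth limits, centring and removal of the gene span trend. After the data were seen, alternatives without shared barcodes, without the top cell of a gene, without cells holding endothelial UMIs and without the mixed pericyte cluster were added. Sums and calls were tested on simulated counts.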

Additional observations from a re-analysis of the deposited data

How the results depend on the processing

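No paired analysis was possible because each group was 1 library, so no replicate could be left out either. Log2 ratios of the T-cell-like share lay between -1.44 and -1.35 and those of the border-macrophage-like share between -2.40 and -1.82 over the alternatives run. The mural share, 2.47, was 1.56 when cells were named singly, by their own markers, and 1.62 both at clustering resolution 0.5 and, chosen after seeing the data, without the mixed cluster; the stricter cell filter gave 2.75. Counts of genes past 2-fold moved widely. In T-cell-like cells, 31 higher genes became 50 with doublets kept, 7 with thinned cells, 12 with a pseudocount of 10 CPM, 169 from 20 UMIs and 2 from 200 UMIs. The 78 lower genes became 172 with own markers, 170 with the stricter filter, 175 at resolution 0.5, 178 at resolution 2, 23 with thinned cells, 118 with per-cell means, 40 with a pseudocount of 10 CPM, 232 from 20 UMIs and 9 from 200 UMIs. In border-macrophage-like cells, 117 higher genes became 8 with thinned cells, 36 without cells holding endothelial UMIs (chosen after seeing the data), 331 from 20 UMIs and 19 from 200 UMIs. The 98 lower genes became 205 at resolution 0.5, 25 with thinned cells, 173 with per-cell means, 56 with a pseudocount of 10 CPM, 340 from 20 UMIs and 14 from 200 UMIs. In endothelial-like cells, 29 higher genes became 44 at resolution 0.5, 109 with thinned cells, 59 with per-cell means, 61 and 2 with pseudocounts of 0.1 and 10 CPM, 59 from 20 UMIs and 6 from 200 UMIs. The 136 lower genes became 86 with own markers, 71 with doublets kept, 19 with a pseudocount of 10 CPM, 247 from 20 UMIs and 41 from 200 UMIs. In microglia-like cells, 23 higher genes became 14 with own markers, 252 with doublets kept, 45 with per-cell means, 15 with the span trend removed, 49 and 1 with pseudocounts of 0.1 and 10 CPM, 37 from 20 UMIs and 3 from 200 UMIs. The 35 lower genes became 55 and 7 with pseudocounts of 0.1 and 10 CPM and 14 from 200 UMIs. The depth limits change how many genes are tested; for the other settings the cause was not tested. Single genes changed sign in 6 cases: Gzma in T-cell-like cells was 2.07 at resolution 0.5; in border-macrophage-like cells Cxcl9 was -0.63 at resolution 0.5, Ccl24 -0.58 without its top cells, Ptgds 0.24 with thinned cells and Fn1 -1.83 without cells holding endothelial UMIs; and H2-Eb1 in microglia-like cells was 0.39 with own markers. With 1 pooled library a side, no interval covers differences between mice, sorts or captures.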

Other observations

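A few clusters had no name by the marker rule but differed in share. A cluster led by Cd209a, Mgl2 and Ccl17, with MHC class II genes among its top genes, held 71 isotype cells, 2.51% of clustered cells, and 19 anti-VLA4 cells, 0.306% (log2 ratio -3.03), beside 1.98% in sham and 0.515% under anti-VCAM1. Cd209a is a lectin of monocyte-derived dendritic cells, and over whole libraries it was at 25.5 CPM under isotype and 7.94 CPM under anti-VLA4. A cluster led by S100a9 and S100a8, calcium-binding proteins abundant in neutrophils and monocytes, held 32 isotype and 8 anti-VLA4 cells, 1.13% and 0.129% (-3.13), and S100a8 was at 150 and 48.3 CPM over whole libraries. Ccr2, the chemokine receptor of inflammatory monocytes, was at 53.9 and 9.42 CPM over whole libraries. Of 7 monocyte markers, 5 were lower with intervals that exclude 0, and 1, Fn1, was higher, at 113 and 276 CPM. Fn1 was at 537 CPM in endothelial-like cells of both libraries. With Fn1 included, the monocyte marker sum was 292 and 308 CPM, and per 100 Ptprc UMIs 54.5 and 119.8 (1.14). A cluster with all 10 endothelial markers, led by Gkn3 and with Bmx, genes of arterial endothelium, was 2.23% of clustered cells under isotype (63 cells) and 5.75% under anti-VLA4 (357 cells).

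The choroid plexus gene Ttr was found in the isotype library's astrocyte-like class in 1 cell, which held all 2487 UMIs of that class. That cell had 9935 UMIs in all, 8 of the choroid plexus gene Kl and 0 of the astrocyte genes Aqp4 and Gja1.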
